A study of Caenorhabditis elegans with 2 samples.

Results

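The genes of the cohesin complex and of its loading and release were examined for binding of HIM-1, itself a cohesin subunit, in Caenorhabditis elegans. They were the 10 listed genes him-1, smc-3, scc-1, scc-3, rec-8, coh-1, coh-3, coh-4, wapl-1 and mau-2, chosen by name, of 19973 protein-coding genes on the 6 nuclear chromosomes. Chromatin immunoprecipitation sequencing (ChIP-seq) had been carried out on whole hermaphrodites of strain YL576, a transgenic line with a C-terminal GFP-FLAG tag on HIM-1. Worms were L4/young adult, 51 hours after synchronization by bleaching and starvation at the L1 larval stage. There was 1 group with 2 biological replicates and no second condition, and the labels name an anti-GFP antibody in their text and him-1 in their antibody field. Whole animals mix germline and somatic nuclei, and the labels do not say how far the inserted him-1 DNA extends, so reads from the transgene and from the endogenous gene cannot be told apart at him-1.

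Cohesin is a ring that holds sister chromatids together and shapes chromosomes into loops. Its arms are the SMC proteins HIM-1 (SMC1) and SMC-3, closed by a kleisin subunit and bound by SCC-3. Worms use several kleisins: SCC-1 in mitosis, COH-1 in somatic cells, and REC-8, COH-3 and COH-4 in meiosis. MAU-2 works with SCC-2 to load the ring onto DNA, and WAPL-1 releases it.

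The upstream sequences at the highest entries of smc-3, wapl-1 and coh-1 show where HIM-1 signal peaked next to cohesin genes whose sequence is shown here. They are from the RefSeq copy of WBcel235 (ce11) and read 5′ to 3′ towards the gene. For smc-3 the whole interval between it and the divergent gene mib-1 is given (III:11290677-11290903, plus strand), with the summit at base 27. For wapl-1 (IV:4445781-4445981, minus strand) and coh-1 (X:7475120-7475320, minus strand) the summit is base 101. The coh-1 entry is a weak one, outside the reproducible peaks described further on. Capitals mark a match to a core of the A box of tRNA genes, described further on.
smc-3: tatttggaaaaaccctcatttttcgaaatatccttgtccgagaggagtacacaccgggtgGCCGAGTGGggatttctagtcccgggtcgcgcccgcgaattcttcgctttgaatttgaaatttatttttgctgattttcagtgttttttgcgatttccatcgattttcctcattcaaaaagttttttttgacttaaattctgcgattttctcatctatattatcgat
wapl-1: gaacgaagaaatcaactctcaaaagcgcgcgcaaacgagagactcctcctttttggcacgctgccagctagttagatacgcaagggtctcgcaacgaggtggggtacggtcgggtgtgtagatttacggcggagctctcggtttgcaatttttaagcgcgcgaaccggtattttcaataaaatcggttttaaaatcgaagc
coh-1: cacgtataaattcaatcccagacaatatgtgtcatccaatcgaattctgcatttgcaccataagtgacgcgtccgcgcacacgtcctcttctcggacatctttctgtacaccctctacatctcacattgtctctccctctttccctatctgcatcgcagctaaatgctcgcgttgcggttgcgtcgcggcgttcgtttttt

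Peaks reproducible between replicates were found at 3 of the 10 genes: mau-2, wapl-1 and smc-3. Such a peak is an entry of the deposited optimal list with its summit inside the gene or at most 2000 bp upstream of its annotated 5′ end. Across all protein-coding genes 8.60% met the same rule. Weaker entries of the pooled list, which also holds background entries, added him-1 and coh-1, so that 5 of 10 genes had a pooled entry, against 35.5% of all genes. An entry in each replicate's own list was present at the same 5 genes, against 31.5% of all genes. With 10 genes these counts are a description, and no test was made on them. The genes were longer than most, with a median length of 4156 bp against 2027 bp for all, which leaves more room for an entry inside a gene. The 3 optimal summits all lay in the upstream window, which is 2000 bp for every gene. Of all protein-coding genes, 6.69% had an optimal summit there. Whether gene length bears on these counts was not tested. Per Mb of gene and upstream sequence, the 3 summits in 77.7 kb gave 38.6 optimal peaks, against 17.6 over all protein-coding genes. For pooled entries the density was 142 against 122 per Mb.

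**Figure D1:**
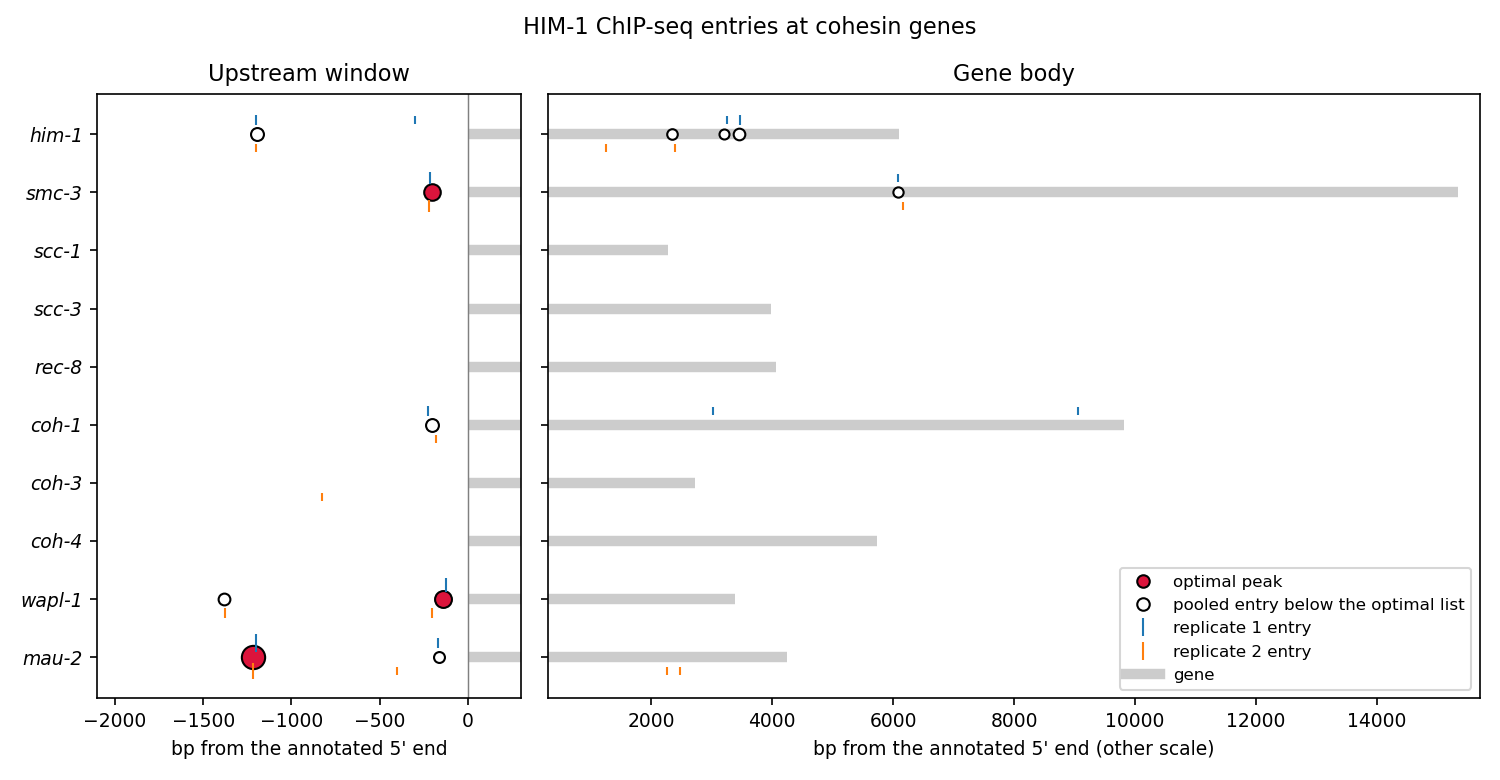
Entries at the 10 cohesin genes by distance of the summit from the annotated 5′ end in bp, with the upstream window and the gene body on separate scales. Grey bars are genes, circles are pooled entries with area rising with signal (red where the entry is an optimal peak), and ticks are entries of replicate 1 (above) and replicate 2 (below). The 3 red circles, at smc-3, wapl-1 and mau-2, all lie upstream of the gene, and scc-1, scc-3, rec-8 and coh-4 carry no mark.

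The optimal peaks lay upstream of the genes, while weaker entries lay both upstream and inside. All 3 optimal summits were upstream, and no cohesin gene had an optimal summit inside it. Over all protein-coding genes, 2.32% had one inside and 6.69% had one upstream. With 10 genes, the lack of one inside does not set the cohesin genes apart from other genes. Of the 11 pooled entries at cohesin genes, 7 were upstream, 2 in coding sequence and 2 in introns. No such split is given here for all genes. The 8 pooled entries outside the optimal list had signals of 42.6 to 76.5, below the lowest optimal peak at 102.0. Their deposited −log10 q-values were only 0.02 to 0.97, against 3.41 at each of the 3 optimal peaks. That value is the highest deposited, so it does not rank the 3 peaks among themselves. The signal value is the authors' own, its scale is not stated and the read depth behind it is unknown, so genes were ranked only within a list, and ratios between the replicates are read beside the median ratio over all optimal peaks.

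**Figure D2:**
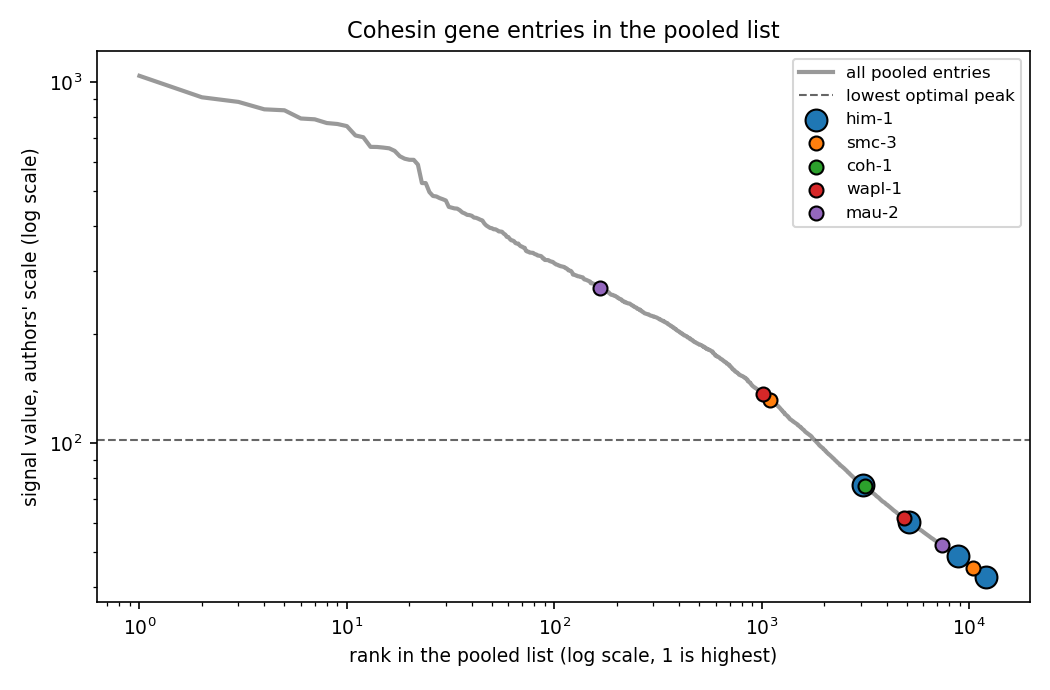
Signal value of each pooled entry against its rank among 12228 entries, both on log scales, with the cohesin gene entries as coloured points (him-1 drawn larger so that it shows under coh-1) and the lowest optimal peak as a dashed line. The mau-2 entry at rank 166 stands well above those of wapl-1 and smc-3 at ranks 1017 and 1093, and 8 entries lie below the line.

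Of the SMC arm genes, smc-3 had an optimal peak and him-1 did not. The smc-3 peak (III:11290468-11290937) had a pooled signal of 132, with 66.4 in replicate 1 and 65.0 in replicate 2. It ranked 1572 of 16213 entries in replicate 1 and 822 of 15469 in replicate 2, so it stood relatively higher in replicate 2. The summit lay 201 bp upstream of smc-3 and only 27 bp upstream of the divergent gene mib-1, which encodes an orthologue of the ubiquitin ligase mind bomb. It was also 123 bp upstream of gly-9, a glycosyltransferase gene that overlaps mib-1. Position alone does not assign the peak to one of these genes. Inside the gene, a weak entry in intron 9 of 18 (6078 bp from the 5′ end, pooled signal 45.1) was listed in both replicates, at ranks 12052 and 8786.

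At him-1, which encodes the immunoprecipitated protein, all 4 pooled entries were weak. The highest, at I:4958628-4959097, had a pooled signal of 76.5 and ranked 3086 of 12228. Replicate 1 gave 37.2 and replicate 2 gave 32.4, with summits 1203 and 1200 bp upstream. That site was nearer to other 5′ ends, 354 bp upstream of enu-3.3 and 554 bp upstream of mzt-1, the gene of a small microtubule-organizing protein that lies between the site and him-1. The 3 entries inside him-1 had pooled signals of 60.6, 42.6 and 48.5. None of these 3 was overlapped in both replicates: the first and its neighbour were overlapped in replicate 1 (highest signal 49.2) and the last in replicate 2 (signal 28.9). The entries of 60.6 and 42.6 lay 2733 and 2984 bp upstream of F28B3.6, nearer to its 5′ end than to that of him-1. The nearest optimal peak lay 9960 bp upstream of him-1.

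The kleisin genes carried no optimal peak (0 of 5, against 8.60% of all genes), and 1 of the 5 had a pooled entry (against 35.5%). With 5 genes, neither count sets the kleisin genes apart from other genes. That gene was coh-1, the somatic kleisin gene on X, with an entry at X:7474985-7475454 whose pooled signal was 75.9 (rank 3142). The replicates gave 42.4 and 29.3, with summits 226 and 178 bp upstream of coh-1 and no other gene's region at the pooled summit. The coh-1 signal was close to that of him-1, and both fell short of the optimal list. Replicate 1 also listed entries of 29.7 in intron 4 and 30.8 in a UTR of coh-1, which had no counterpart within the gene in replicate 2 or in the pooled list. The entry of 30.8 lay 9061 bp into this gene of 9826 bp, also within 2000 bp upstream of several non-coding RNA genes.

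The mitotic kleisin gene scc-1 had no entry in any of the 4 lists within the 2000 bp rule. Just outside that window, replicate 2 listed an entry 2022 bp upstream (signal 22.5) and replicate 1 one at 2447 bp (26.4). An optimal peak with a signal of 127 lay 499 bp beyond its 3′ end, 576 bp from the 5′ end of unc-85, a histone chaperone gene. The meiotic kleisin genes had no pooled entry. Neither rec-8 nor coh-4 had an entry in any list, and the nearest pooled entries lay 15550 and 19410 bp away. For coh-3 a single entry of replicate 2, with a signal of 23.8 (rank 7514 of 15469), lay 829 bp upstream, inside the kinesin gene bmk-1. The nearest optimal peak to coh-3 was 88967 bp away and that to rec-8 33001 bp. The gene of the SCC-3 subunit likewise had no entry in any list, with the nearest pooled entry 5645 bp upstream at a signal of 44.8. Absence from a list is not absence of binding, since the depth is unknown and the lists end at signals of 42.4 (pooled), 23.8 (replicate 1) and 17.9 (replicate 2).

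Both the loader gene mau-2 and the release factor gene wapl-1 had optimal peaks (2 of 2, against 8.60% of all genes). With 2 genes this count is a description, and no test was made on it. The mau-2 peak, at I:8124349-8124818, was the strongest of all cohesin gene entries. Its pooled signal was 269, with 146 in replicate 1 (rank 233) and 119 in replicate 2 (rank 135). The summits lay 1202 and 1217 bp upstream of mau-2, and no other annotated gene region held the pooled summit. A weaker entry nearer the gene, 162 bp upstream, had a pooled signal of only 52.1 (rank 7383), with 38.8 in replicate 1. The replicate 2 entry that overlapped it (27.5) had its summit 401 bp upstream, 239 bp from the pooled summit.

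The wapl-1 peak, at IV:4445646-4446115, had a pooled signal of 137. Replicate 1 gave 93.7 (rank 765) and replicate 2 gave 49.6 (rank 1419), so its place was higher in replicate 1, the opposite of smc-3. Its summit was 141 bp upstream of wapl-1 and 335 bp upstream of the divergent gene htz-1, which encodes the histone variant H2A.Z. The summit was also 1450 bp upstream of chat-1, and position alone does not assign the peak to one of these genes. The annotated 5′ end of wapl-1 coincides with its start codon, so no 5′ UTR is annotated between the gene and this site. A weaker entry 1381 bp upstream of wapl-1 (pooled signal 61.9) was overlapped only in replicate 2 (signal 39.6), and it lay 210 bp upstream of chat-1, beyond htz-1. The 5′ ends of the non-coding RNA gene R08C7.17 and the snoRNA gene R08C7.19 were 541 and 518 bp from this summit.

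The replicates placed the highest entries of the 5 genes alike but weighted them differently. For the highest pooled entry of the 5 genes, the replicate 1 over replicate 2 ratio of signals was 1.02 at smc-3, 1.15 at him-1, 1.22 at mau-2, 1.45 at coh-1 and 1.89 at wapl-1. Over the 1797 optimal peaks the median ratio was 1.41, with quartiles of 1.18 and 1.72. The ratios at smc-3 and him-1 were thus below the lower quartile and that at wapl-1 above the upper one. Replicate summits at the 3 optimal peaks were at most 63 bp from the pooled summit. Both replicate lists were made against 1 control, and how far that control shaped these entries was not tested.

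**Figure D3:**
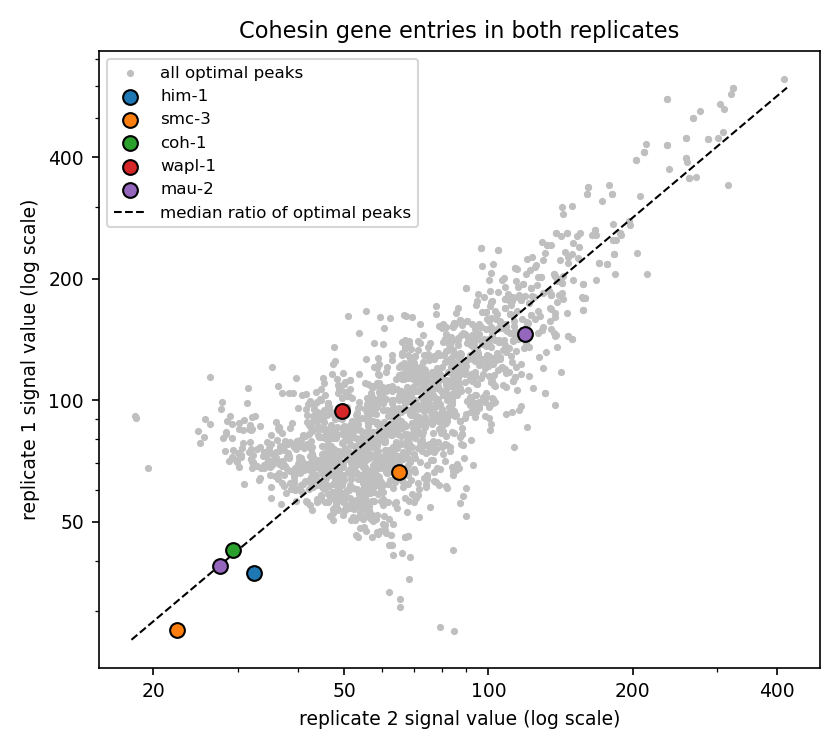
Replicate 1 against replicate 2 signal on log scales for all 1797 optimal peaks (grey) and for the pooled entries of cohesin genes that both replicates overlap (coloured). The dashed line is the median ratio of the optimal peaks, 1.41, with wapl-1 above it and smc-3 below it.

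Among the 1717 genes with an optimal peak by the same rule, mau-2 ranked 179 by its highest signal, wapl-1 1002 and smc-3 1081. The genes next to mau-2 in this order were C04A2.15 above (signal 272) and emr-1 and nlp-12 below (one shared peak, signal 269). Those next to wapl-1 were crh-2 above and npp-6 and spd-5 below at one shared peak, all at 137, and those next to smc-3 were F53E10.5 and sue-1, both at 132. With 1 condition this order is one of signal only.

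Peaks shared with a divergent neighbour were common in general. The same summit lay within 2000 bp upstream of an opposite-strand protein-coding gene for 2 of the 3 cohesin genes with an upstream optimal peak, smc-3 and wapl-1. That was so for 677 of 1337 genes (50.6%) overall.

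The sequence around the optimal summits of cohesin genes had a GC content at or within the quartiles of the optimal list. In the 201 bases centred on the summit it was 40.8% at smc-3, 45.3% at mau-2 and 49.3% at wapl-1, against a median of 45.8% over all optimal peaks (quartiles 40.8 and 50.2). The weak coh-1 entry had 48.8%, against a median of 37.8% for pooled entries outside the optimal list. Of 6 transcription factor or repeat motifs searched on both strands in that window, none was present at the 3 optimal summits. The repeat GAGAGAG lay at 22.8% of all optimal peaks, the E-box motif CACGTG at 4.06% and the GATA factor motif TGATAA at 6.34%. The CRE motif TGACGTCA lay at 1.56%, the Sp1-like motif CCGCCC at 11.2% and an E2F-like motif, TTTCGCGC or its variant TTTGGCGC, at 3.28%.

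The smc-3 interval held 1 match to a core of the A box of tRNA genes (GCNNAGTGG), the letters in capitals above, starting 34 bases from the summit on the side of smc-3. This motif was chosen after the sequence had been seen. It was present within 100 bp of 69 of 1797 optimal summits (3.84%) and of 1.62% of the other pooled entries. No tRNA gene is annotated in the interval, and the B box that follows the A box in tRNA genes (core GTTCGANTC) was not matched there. The B box core was present at 3.56% of all optimal summits.

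Other genes of chromosome cohesion and structure were placed by the same rule. Their lists were chosen with earlier results of these data known, so the counts are a description only. Of 13 cohesion regulator genes, 5 had an optimal peak (38.5%, against 8.60% of all genes). They were ctf-4, a replication fork gene (signal 255, 150 bp upstream), ify-1, the securin gene (199, 197 bp upstream), scc-2, the loading partner of MAU-2 (143, in intron 1), tim-1, a Timeless family gene (120, 248 bp upstream), and hpr-17, a checkpoint clamp loader gene (119, 91 bp upstream). The scc-2 peak gave 85.7 in replicate 1 and 51.4 in replicate 2 and lay 8340 bp into a gene of 22959 bp. At tim-1 the replicates differed most of these, with 95.0 and 27.7. The cohesin-associated gene evl-14 (the PDS5 orthologue) had only a weak pooled entry of 58.5, 366 bp upstream.

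Of 10 chromosome axis and synapsis genes, 1 had an optimal peak (10%), syp-6, a synaptonemal complex gene (signal 290, 1506 bp upstream). Of 11 genes of other SMC complexes, 1 had one (9.09%), mix-1, the SMC2 subunit gene of condensin (signal 333, in intron 13). These shares were near the 8.60% of all genes. For the cohesion regulator genes and the genes of these lists, neighbouring 5′ ends are not given here. Position alone therefore does not assign a peak to the gene named. A pooled entry was present at 8 of 13 cohesion regulator genes, 4 of 10 axis and synapsis genes and 6 of 11 genes of other SMC complexes, against 35.5% of all genes.

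**Figure D4:**
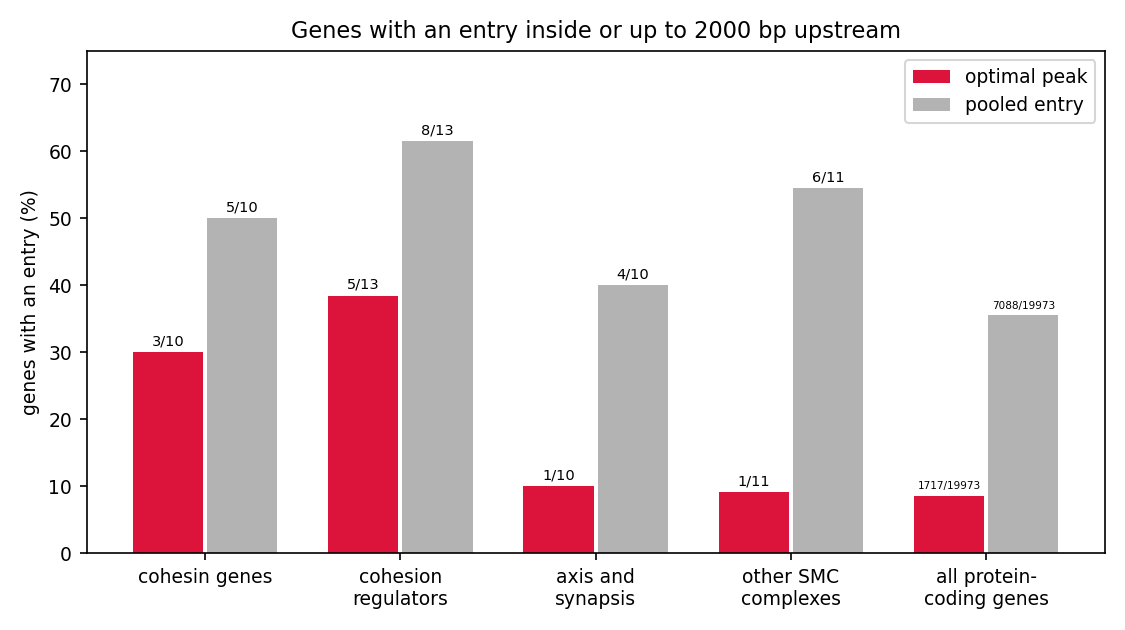
Share of genes, in percent, with an optimal peak (red) or any pooled entry (grey) inside the gene or up to 2000 bp upstream, for cohesin genes, the 3 other lists and all protein-coding genes, with counts above the bars. Optimal peaks were at 3 of 10 cohesin genes and 5 of 13 cohesion regulator genes, against 8.60% of all protein-coding genes.

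The mau-2 call rested on the width of the window, since with 500 bp upstream it had no optimal peak and 2 of the 10 genes kept one. Within 2000 bp the outermost pooled entries were those of wapl-1 at 1381 bp and mau-2 at 1217 bp. Just beyond it, scc-1 had a pooled entry 2382 bp upstream (signal 44.3), mau-2 one at 2930 bp (48.8) and coh-1 one at 3659 bp (87.7), the last higher than the coh-1 entry inside the window.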

How the data were processed

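The files are narrowPeak lists in build ce11. The authors deposited a list for each replicate and 1 from both replicates together, all with background entries and against the same control, and an optimal list kept by the irreproducible discovery rate procedure, per the text deposited with each sample. The signal value and the −log10 q-value of each entry are the authors' deposited values; the latter was read only to describe entries. The aligner and peak caller: not given in the sources used here. Read depth is unknown. The ce10 lists were not used here.

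Entries were placed by summit on Ensembl release 115 genes (WBcel235, the same assembly as ce11) and ranked by signal. Sequence came from the RefSeq copy, in which 8 of the 10 genes have identical ends. Gene placing was checked on simulated entries. The genes and lists were chosen with earlier results of these data known. Named genes were the 10 genes and genes whose region or nearer 5′ end shared a pooled entry with them. Genes next in signal and genes of the other lists with an optimal peak were also named. Beside these, bmk-1 held a replicate 2 entry of coh-3, and evl-14 and unc-85 were added after their values were seen. The symbols F08F8.4 and pqn-85 were not matched. With 1 group, no test between conditions exists. Alternatives varied the window, the placing rule, the threshold and the replicate. Python 3.11.15, NumPy 2.4.6, pandas 2.3.3 and matplotlib 3.10.9 were used.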

Additional observations from a re-analysis of the deposited data

How the results depend on the processing

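Optimal peaks were at 3 of the 10 genes also with a 5000 bp window (12.3% of all genes) and with any overlap of the entry (9.50%). With a 500 bp window, which leaves out mau-2, they were at 2 (5.81%), and in the upper 50% of the optimal list at 1, mau-2 (4.48%). To leave out a replicate, the 1797 highest entries of the other replicate's own list were taken, without the reproducibility step. Such entries were at 3 genes without replicate 1 (8.81% of all genes) and at 3 without replicate 2 (8.18%). Pooled entries were at 5 genes with a 500 bp window (27.2% of all genes) and with any overlap (38.2%). With 5000 bp they were at 6 (46.8%), scc-1 being added. When 1 replicate's own list replaced the pooled list, that of replicate 2 had entries at 6 genes (44.7%), with coh-3 added. The list of replicate 1 had them at 5 (42.4%). Entries in both replicates were at 5 or 6 genes, with 6 at 5000 bp (43.8%), while the share of all genes ran from 18.6% to 43.8%. The median percentile of the highest entries in the pooled list was 91.1. It was 74.3 with the 500 bp window, where that of mau-2 went from 98.6 to 39.6 and that of him-1 from 74.8 to 58.2. Within the list of replicate 1 alone the median was 90.3, and within that of replicate 2 alone 90.8. The density of optimal peaks was 31.9 per Mb with 500 bp (16.4 over all genes) and 27.9 with 5000 bp (18.1). The median replicate ratio at the 5 genes was tried only with an overlap of at least 50% of the shorter entry. Their highest entries already overlapped the replicate entries by at least 0.88 of the shorter, so that setting could not change it. No paired analysis was possible because there is 1 group. Unknown depth and 2 replicates limit every absence.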
